A study of Homo sapiens with 2 samples.

Results

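The mitosis and DNA replication genes are a list of 53 genes of the cell division cycle, chosen by symbol, and all 53 were found among the 18267 genes with counts in the deposited table. They comprise 13 genes of origin licensing and the replication fork, 4 genes of nucleotide supply, 8 regulators of the step from G1 to S phase, 21 mitotic genes, 3 pocket proteins and 4 cyclin-dependent kinase (CDK) inhibitors. The measurement was RNA sequencing of total RNA in 1 library labelled DR, for DTIC-resistant, and 1 library labelled WT, for wild type, each given by its labels as A375, a line of human melanoma cells, grown in DMEM with serum. The study derived its DR cells by long exposure to rising DTIC (dacarbazine), a drug that alkylates DNA, and used WT cells as their control, whereas the label text gives 105 days of the drug, spelled DITC there, to both. The comparison asks how the message levels of a resistant culture differ from those of its control. Whether either library came from 1 clone or a pooled culture is not given in the sources used here.

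Several properties of the pair of libraries apply to every value below. The 2 count columns carry names that differ in a single punctuation mark and were assigned by the sample descriptions, so that each direction rests on those descriptions. Depth was 54878355 estimated reads for DR and 35294670 for WT. The labelled cell type did not match its markers. Of 8 melanocytic genes, 6 had counts, with a median of 1.22 and 1.42 CPM (reads scaled to the normalised library size) in DR and WT. SOX10, a defining factor of that lineage, had 3 and 0 reads. MITF alone of the melanocytic genes lay above the median CPM of the genes tested, at 34.6 and 34.7 CPM. Its percentiles by reads per gene length were 40.8 and 41.5. All 10 plasma cell markers lay above the median CPM of the genes tested in both libraries. Their summed level was 5190 CPM in DR and 6256 CPM in WT, while their median was 427 and 357 CPM. They differed in direction, with JCHAIN at 2012 and 2917 CPM and MZB1 at 451 and 224 CPM. The part of the plasma cell markers in the differences described here was not tested. Markers of fibroblasts, T cells, myeloid cells and erythroid cells were low, with summed levels between 3.16 and 24.7 CPM in either library and no marker above the median CPM of the genes tested. By reads per gene length, HBA1, a short globin gene, was above the median, at percentiles 73.6 and 63.7. With 1 library in each group no difference has a replicate check, and a difference is one between these libraries rather than between the conditions. The 95% Clopper-Pearson intervals below cover counting error alone, and sequencing reads are not independent molecules.

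A dividing cell first licenses its replication origins by loading the MCM helicase in G1, then fires them in S phase, and finally separates the copied chromosomes in mitosis. The step into S phase is governed by the retinoblastoma pathway, in which CDK4 and CDK6 inactivate the pocket proteins and so free E2F transcription factors, while the CDK inhibitors hold these kinases back. Replication genes are classical E2F targets that peak near the start of S phase. Mitotic genes peak later, and many are controlled through a CHR element (cell cycle genes homology region) together with CCAAT boxes. In a bulk culture the message of these genes is the most used sign of proliferation, although fewer dividing cells and less message per cell cannot be told apart.

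Promoter sequence differed between the replication genes and the mitotic genes. RefSeq promoters of GRCh38.p14, of 300 bases each (250 before and 50 after 1 annotated start), were available for 45 of the 53 members by gene ID. MCM4, MCM5, CCNE2, CDK2, AURKA, TTK, BIRC5 and FOXM1 had no entry. They were searched on both strands, with overlapping matches allowed, for an E2F site (TTTCCCGC, TTTCGCGC, TTTGCCGC or TTTGGCGC), the CHR element (TTTGAA) and the CCAAT box (CCAAT). An E2F site was present in 8 of 15 replication promoters (53.3%) and 2 of 17 mitotic promoters (11.8%), against 3.33% of all 27305 promoters. The CHR element showed the opposite order, with 1 of 15 replication promoters (6.67%), 10 of 17 mitotic promoters (58.8%) and 15.4% of all promoters. CCAAT boxes were found in both groups, in 66.7% and 76.5% of promoters against 35.7% of all. Of the 4 CDK inhibitor promoters, 0 held an E2F site or a CHR element and 1, that of CDKN1B, held a CCAAT box. Only 1 promoter was searched per gene, and whether it lies at the gene's main start was not determined. A gene without a match there may hold one at another start. For CDKN2A, which encodes the inhibitor p16 and also ARF, it was not determined which product's start this was. A match is a run of letters, not a shown binding site.

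**Figure D1:**
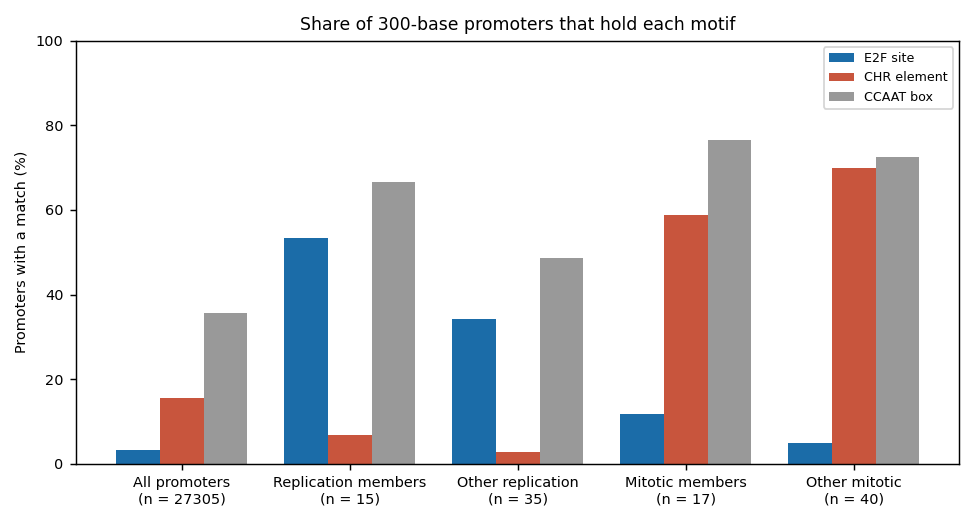
Share of 300-base promoters, in percent, that hold an E2F site (blue), a CHR element (red) or a CCAAT box (grey), for all RefSeq promoters, the replication and mitotic members, and the other replication and mitotic genes of the pathway lists. E2F sites are most frequent in both replication groups (53.3% and 34.3%) and CHR elements in both mitotic groups (58.8% and 70.0%).

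The stretches of 150 bases directly before the start are shown for 7 members whose values anchor the results below, with the matches in capitals, 5′ to 3′ on the strand of the gene. MCM6 (GRCh38.p14, chr2:135876444-135876593, minus strand) stands for a replication gene with dense E2F sites, MCM7 (chr7:100101398-100101547, minus strand) had the highest fold change of the replication genes and MCM10 (chr10:13161408-13161557, plus strand) the lowest. CCNB2 (chr15:59104996-59105145, plus strand), PLK1 (chr16:23678739-23678888, plus strand) and MKI67 (chr10:128126424-128126573, minus strand) carry the mitotic pairing of CHR and CCAAT. CDKN2C (chr1:50960595-50960744, plus strand) was the member with the largest difference between the libraries, and the promoter searched for it held none of the motifs.
MCM6: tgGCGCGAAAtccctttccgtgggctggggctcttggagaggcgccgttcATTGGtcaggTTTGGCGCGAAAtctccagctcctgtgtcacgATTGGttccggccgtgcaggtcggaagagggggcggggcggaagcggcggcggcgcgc
MCM7: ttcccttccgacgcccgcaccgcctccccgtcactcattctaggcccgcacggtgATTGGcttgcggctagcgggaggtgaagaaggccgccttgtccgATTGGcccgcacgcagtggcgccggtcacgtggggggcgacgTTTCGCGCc
MCM10: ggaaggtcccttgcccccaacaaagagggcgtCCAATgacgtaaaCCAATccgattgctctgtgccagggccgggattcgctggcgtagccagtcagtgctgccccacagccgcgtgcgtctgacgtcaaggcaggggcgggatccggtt
CCNB2: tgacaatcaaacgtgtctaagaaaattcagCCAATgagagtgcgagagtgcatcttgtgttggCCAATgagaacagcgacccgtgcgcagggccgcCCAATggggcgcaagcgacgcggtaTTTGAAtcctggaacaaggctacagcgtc
PLK1: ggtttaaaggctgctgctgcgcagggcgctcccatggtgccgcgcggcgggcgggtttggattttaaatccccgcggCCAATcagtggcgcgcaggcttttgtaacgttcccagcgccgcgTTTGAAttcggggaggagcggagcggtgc
MKI67: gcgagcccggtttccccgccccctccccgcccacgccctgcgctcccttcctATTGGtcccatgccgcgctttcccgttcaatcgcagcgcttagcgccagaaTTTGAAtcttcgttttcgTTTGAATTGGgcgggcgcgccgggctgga
CDKN2C: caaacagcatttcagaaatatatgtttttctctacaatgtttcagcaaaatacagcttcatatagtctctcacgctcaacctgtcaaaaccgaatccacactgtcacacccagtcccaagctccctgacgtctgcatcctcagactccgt

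Fold changes were also read by motif, as a description. Fold changes are given as the log2 ratio of DR over WT, taken on CPM plus a pseudocount of 0.5. The 14 members with an E2F site had a median of -0.04 and the 31 without one a median of -0.32. Within the replication genes these medians were -0.03 for the 8 with a site and -0.29 for the 7 without. Among the mitotic genes the median was -0.22 for the 10 with a CHR element and -0.18 for the 7 without. In the other replication genes the order for the E2F site was the reverse of that in the members, with -0.24 in the 12 genes that hold it and -0.04 in the 23 that do not.

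The list as a whole was slightly lower in DR and differed by little. All 53 members passed the filter of 10 reads over both libraries, and their median log2 fold change was -0.27, against 0.01 for all 16210 genes tested. A value below 0 was seen for 43 of 53 members (81.1%) and for 48.9% of all genes tested. Counting each interval, 37 members (69.8%) lay below 0, 9 (17.0%) lay above 0 and 7 (13.2%) held 0, against 34.6%, 35.8% and 29.6% of all genes tested. Among tested genes whose mean level reached 10 CPM, where intervals are narrower, these shares were 44.4%, 37.8% and 17.8%. Together the members took 0.956% of the reads in DR and 1.09% in WT. These shares come from single libraries, so that a difference of this size between replicate cultures cannot be judged.

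Past 2-fold, 1 member was called higher in DR, CDKN2C, where 7.48% of all genes tested were called, and 0 members were called lower, where 4.16% were. Past 1.5-fold, the same single member was called higher against a background of 15.1%. Called lower past 1.5-fold were 7 members (13.2%), namely MCM10, CDK6, CENPF, CENPE, FOXM1, RB1 and CDKN2B, against a background of 11.2%. The lower count is thus close to that of genes at large, and the higher count is below it. Since low genes scatter more, the same counts were taken over genes whose mean level reached 10 CPM, a choice made after seeing the data. Of 51 members at that level 6 were lower, against 11.1% of genes, and 0 were higher, against 9.74%. The members also varied less among themselves, with an interquartile range of 0.41 in log2 fold change against 0.63 for all genes tested and 0.55 for those that reached 10 CPM. The members called are MCM10 (NCBI Gene ID 55388), CDK6 (1021), CENPF (1063), CENPE (1062), FOXM1 (2305), RB1 (5925), CDKN2B (1030) and CDKN2C (1031).

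**Figure D2:**
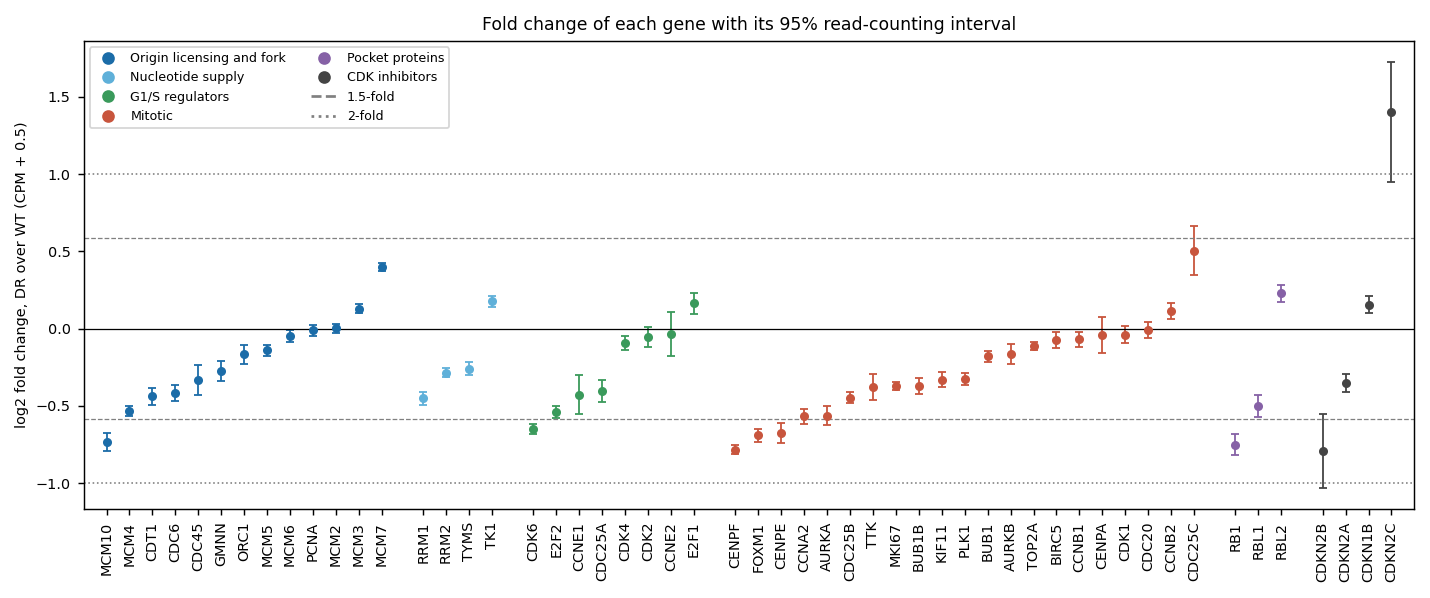
log2 fold change of each of the 53 members, DR over WT on CPM plus 0.5, ordered within each gene group, with bars for the 95% Clopper-Pearson interval of read counting. Dashed lines mark 1.5-fold and dotted lines 2-fold, and 45 members lie between the dashed lines while CDKN2C lies above the upper dotted line.

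The MCM2-7 complex, the helicase that is loaded onto origins and unwinds the fork, had unequal fold changes. MCM2 had 20953 reads in DR and 13137 in WT, which is 377 CPM in both after scaling (log2 fold change 0.00, interval -0.03 to 0.03). MCM6 had 249 and 257 CPM (-0.05) and MCM5 had 288 and 317 CPM (-0.14). MCM3 was at 455 and 416 CPM (0.13). The extremes of the hexamer lay on either side of these. MCM7 stood at 660 CPM in DR and 501 CPM in WT (0.40, interval 0.37 to 0.42), and MCM4 at 320 and 463 CPM (-0.53, interval -0.56 to -0.50). Both have fractional estimated counts, and MCM7 shares its position with AP4M1 and with a cluster of microRNA genes, so that these 2 values are less certain than the rest. The subunits of this single complex thus spanned both directions.

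Among the genes that load the helicase, ORC1, the largest subunit of the origin recognition complex, had 88.7 and 99.6 CPM in DR and WT (-0.17). The loading factors CDC6 (114 and 152 CPM) and CDT1 (110 and 150 CPM) had nearly the same log2 fold change, -0.42 and -0.44. GMNN encodes geminin, the inhibitor of CDT1, and had 74.7 and 90.4 CPM (-0.27). All these genes, the inhibitor of CDT1 included, were therefore on the lower side in DR, within 1.5-fold.

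MCM10, which activates the loaded helicase, has fractional counts. It was the only replication gene of 17 past 1.5-fold, and lower (5.88%, against 11.2% of all genes tested). It had 4545 reads in DR and 4748 in WT although DR was sequenced 1.55 times deeper, which gives 81.8 and 136 CPM and a 1.67-fold lower level in DR (-0.73, interval -0.79 to -0.67). CDC45, a partner of the active helicase, had 36.2 and 45.7 CPM (-0.33). PCNA, the sliding clamp of the DNA polymerases, had 319 and 321 CPM (-0.01, interval -0.05 to 0.02), so its reads show no difference beyond counting error.

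The nucleotide supply genes included 3 below 0 (75%, against 48.9% of all genes tested) and 1 above. RRM1 and RRM2, the subunits of ribonucleotide reductase, had 165 and 226 CPM (-0.45) and 411 and 501 CPM (-0.29) in DR and WT. TYMS, thymidylate synthase, had 179 and 214 CPM (-0.26). TK1, thymidine kinase of the salvage route, was higher in DR with 315 against 278 CPM (0.18) and had the highest level per length of these 4 genes, 433 and 387 TPM. TPM, used to compare genes, is reads per gene length scaled to a common sum. The highest TPM of the replication genes were those of MCM7 in DR (568) and PCNA in WT (551), and the lowest in DR was that of MCM10 (40.1). The median of the 17 replication genes was 149 TPM in DR and 218 TPM in WT, in each case the value of MCM4. The difference between those medians is thus that of 1 gene. All genes tested had medians of 14.4 and 14.5 TPM, so the replication messages were abundant in both libraries.

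**Figure D3:**
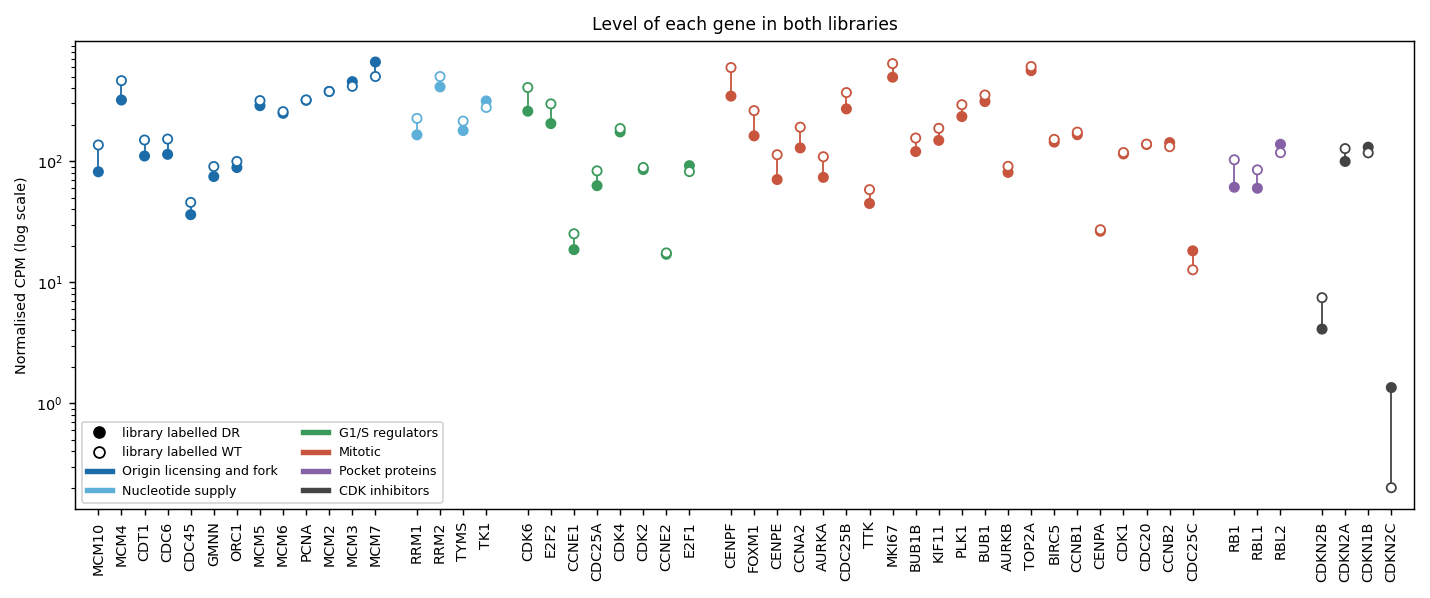
Level of each of the 53 members in normalised CPM on a log axis, filled circles for the library labelled DR and open circles for the library labelled WT, joined by a line. Most pairs nearly overlap, and CDKN2B and CDKN2C are the only members under 10 CPM in both libraries.

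The kinases and activators of the step from G1 to S included CDK6 as the only gene past 1.5-fold. This was 1 of 8 genes (12.5%), where 11.2% of all genes tested were called lower. CDK6 had 259 CPM in DR and 407 CPM in WT, a 1.57-fold lower level in DR (-0.65, interval -0.68 to -0.62). The counts of CDK6 are fractional. The sister kinase CDK4 had 175 and 186 CPM (-0.09). Per length CDK4 was the more abundant of the pair, at 193 and 208 TPM against 49.6 and 78.8 TPM for CDK6. CDK2, the partner of cyclin E, had 85.3 and 88.7 CPM, with an interval of -0.12 to 0.01 that holds 0.

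The activating transcription factors were unequal. E2F1 was slightly higher in DR, with 92.0 against 82.1 CPM (0.16), and E2F2 lower, with 205 against 298 CPM (-0.54). The cyclin E genes were the least abundant of this group. CCNE1 had 18.6 and 25.2 CPM (-0.43) and CCNE2 17.0 and 17.5 CPM, where the interval of -0.18 to 0.11 holds 0. CDC25A, the phosphatase that activates CDK2, had 62.8 and 83.2 CPM (-0.40). The 8 genes had a median of -0.25, and 7 of them lay below 0 (87.5%, against 48.9% of all genes tested).

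The mitotic genes were lower in DR in 19 of 21 cases (90.5%, against 48.9% of all genes tested). Their median was -0.32, with a range of -0.78 to 0.50. Past 1.5-fold were 3 genes, all lower (14.3%, against 11.2% of all genes tested). CENPF, a protein of the outer kinetochore, had 19170 reads in DR and 20715 in WT, or 345 and 594 CPM, and was 1.72-fold lower (-0.78, interval -0.81 to -0.76). CENPE, the kinetochore motor that moves chromosomes to the spindle equator, had 70.6 and 113 CPM (-0.68). FOXM1, a transcription factor for late cell cycle genes, had 162 and 262 CPM (-0.69). FOXM1 has fractional counts and overlaps RHNO1 and ITFG2, and the strand used in counting is not given in the sources used here.

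CDK1, the central mitotic kinase, was close to 0. It had 115 and 118 CPM (-0.04, interval -0.09 to 0.02), and its cyclin partners CCNB1 (166 and 174 CPM, -0.07) and CCNB2 (142 and 132 CPM, 0.11) were near 0. CCNA2, cyclin A2, which acts in S phase as well as in G2, was lower at 129 and 191 CPM (-0.57). The CDC25 phosphatases that activate CDK1 lay on opposite sides of 0. CDC25B had 271 and 369 CPM (-0.45), whereas CDC25C had the highest fold change of the mitotic genes, with 1010 and 442 reads or 18.2 and 12.7 CPM (0.50, interval 0.35 to 0.66). CDC25C was also the least abundant mitotic gene in CPM, has fractional counts and overlaps FAM53C.

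Kinases and checkpoint proteins of the spindle covered a range from -0.56 to -0.01. AURKA, the centrosomal kinase, had 73.6 and 109 CPM (-0.56), while AURKB, the kinase of the chromosomal passenger complex, had 80.8 and 90.7 CPM (-0.17). BIRC5, survivin, which belongs to that same complex, had 144 and 152 CPM (-0.07). PLK1 sat at the group's median with 234 and 293 CPM (-0.32). The spindle checkpoint genes BUB1 (311 and 352 CPM, -0.18), BUB1B (120 and 155 CPM, -0.37) and TTK (44.7 and 58.2 CPM, -0.38) were all on the lower side. CDC20, the target of that checkpoint and activator of the anaphase promoting complex, had 137 and 139 CPM (-0.01).

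The remaining mitotic genes act on chromosome structure and the spindle. MKI67, the antigen Ki-67 used to count dividing cells, had 494 and 640 CPM (-0.37, interval -0.40 to -0.35). TOP2A, the topoisomerase that untangles sister chromatids, had 560 and 605 CPM (-0.11). CENPA, the histone variant of centromeres, had 26.4 and 27.2 CPM, with an interval of -0.16 to 0.08 that holds 0. KIF11, a motor that separates the spindle poles, had 149 and 187 CPM (-0.33). By TPM the most abundant mitotic gene was PLK1 in both libraries (228 in DR and 289 in WT).

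The retinoblastoma family differed within itself. RB1 had 3386 reads in DR and 3584 in WT, or 60.9 and 103 CPM, and was 1.69-fold lower in DR (-0.75, interval -0.82 to -0.68). RBL1, p107, had 59.8 and 84.9 CPM (-0.50). RBL2, p130, the member most linked to resting cells, was instead higher in DR with 138 against 118 CPM (0.23, interval 0.18 to 0.28). In WT the order per length was RBL2 (58.0 TPM), RB1 (50.7) and RBL1 (36.5), and in DR it was the same (67.3, 29.7 and 25.4 TPM). RBL1 and RBL2 have fractional counts, and RBL2 and RB1 overlap other protein-coding genes, AKTIP and LPAR6.

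The CDK inhibitors had the widest range of any group, from -0.79 to 1.40, with a median of -0.10 over 4 genes. CDKN1B, p27, which binds CDK2 complexes, had 7256 and 4088 reads, or 131 and 117 CPM (0.15, interval 0.10 to 0.21). CDKN2A encodes p16, an inhibitor of CDK4 and CDK6, and also the p53 regulator ARF, which gene-level counts cannot separate. It was abundant in both libraries, with 99.6 and 127 CPM (-0.35), and at 191 and 247 TPM it ranked at percentiles 94.95 and 96.1 of the genes tested. CDKN2B, p15, its neighbour and close relative, had only 228 and 260 reads, or 4.10 and 7.46 CPM (-0.79, interval -1.03 to -0.55), and its call past 1.5-fold was lost with a pseudocount of 5 CPM (-0.45). Both have fractional counts, share sequence with each other and overlap the antisense gene CDKN2B-AS1, so that reads could have been divided between them.

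CDKN2C, p18, a further inhibitor of CDK4 and CDK6, had very few reads. It had 75 reads in DR and 7 in WT, which is 1.35 and 0.20 CPM and places it at percentiles 22.3 and 7.96 of the genes tested by TPM. The log2 fold change of 1.40 (interval 0.95 to 1.72) is the only one past 2-fold in the list, and its lower bound does not reach 2-fold. Without a pseudocount the ratio was 6.72 (interval 3.11 to 17.3). The difference is large as a ratio and small as an amount, since both values are far below the median of 19.97 and 19.6 CPM of the genes tested.

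Replication genes, mitotic genes and inhibitors were then set side by side. The medians were -0.26 for the 17 replication genes, -0.32 for the 21 mitotic genes and -0.10 for the 4 inhibitors. The mitotic median minus the replication median was -0.07 on the log2 scale, well inside the range of either group. The inhibitor median was 0.16 above that of the replication genes and 0.23 above that of the mitotic genes, but it averages 2 genes above and 2 genes below 0 and describes none of them. The summed level was 4243 CPM in DR and 4545 CPM in WT for the replication genes, and 3793 and 4774 CPM for the mitotic genes.

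**Figure D4:**
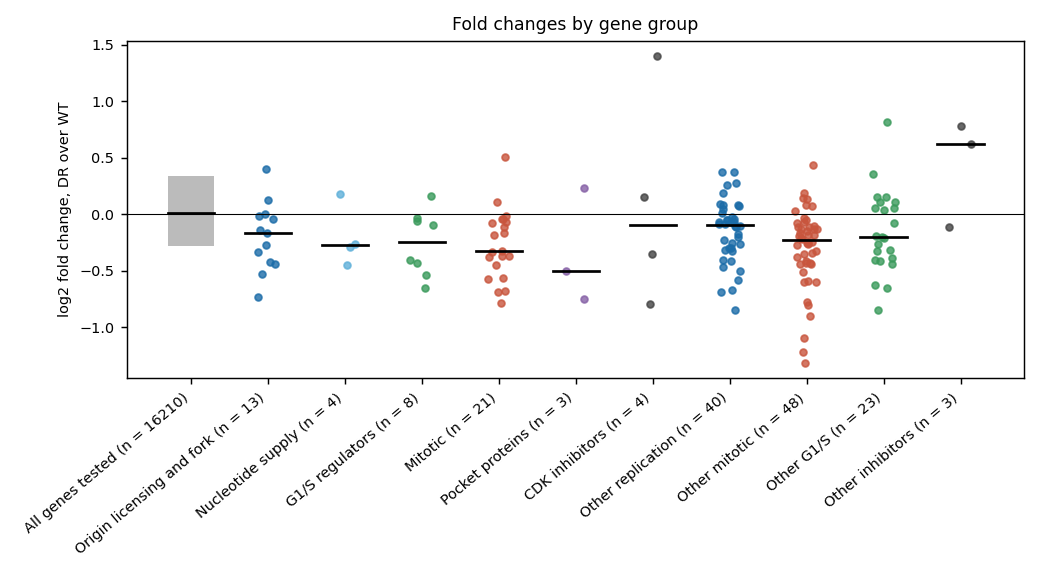
log2 fold change, DR over WT, of every gene in the member groups and in the other pathway lists (points), with the median as a black line, and the interquartile range of all 16210 genes tested as a grey bar. The replication and mitotic groups overlap over most of their range, and the inhibitors spread from -0.79 to 1.40.

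Other genes of the same pathways were read from 4 further lists. Of 40 further replication genes, such as the GINS complex, the DNA polymerases and the clamp loader, 0 were past 2-fold, and past 1.5-fold 3 were lower (POLE, ORC4 and RFC5; 7.5%, against 11.2% of all genes tested) and 0 higher (against 15.1%). Their median was -0.09. Of 48 further mitotic genes 3 were past 2-fold, all lower in DR, where 4.16% of all genes tested were called. Past 1.5-fold 9 were lower (18.8%, against 11.2%), and the median was -0.23. PBK, a mitotic kinase, had 34.1 and 85.6 CPM (-1.31). UBE2C, the ubiquitin-conjugating enzyme of the anaphase promoting complex, had 39.3 and 92.0 CPM (-1.22), and CENPN, which binds centromeric nucleosomes, had 43.1 and 92.5 CPM (-1.09). The further mitotic median minus the further replication median was -0.14.

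Of 23 further genes of the G1 to S step 0 were past 2-fold, 3 were lower past 1.5-fold (E2F6, LIN9 and LIN52; 13.0%, against 11.2% of all genes tested) and 1 was higher, CCND1 (4.35%, against 15.1%). The D cyclins, partners of CDK4 and CDK6, were unequal in level. CCND2 was the main one per length with 184 and 248 TPM (log2 fold change -0.41), while CCND3 had 49.7 and 45.0 TPM (0.16) and CCND1 22.7 and 13.0 TPM (0.82). The 3 further CDK inhibitors gave 2 higher values past 1.5-fold, where 15.1% of all genes tested were called. CDKN1A, p21, had 85.6 and 55.3 CPM (0.63, interval 0.55 to 0.70) and CDKN1C, p57, 30.1 and 17.3 CPM (0.78, interval 0.65 to 0.91). CDKN2D, p19, had 9.34 and 10.1 CPM, where the interval of -0.30 to 0.08 holds 0.

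The fold changes of the members varied with gene length. Over the 53 members the Spearman correlation of log2 fold change with the deposited length was -0.51, a description across genes that share the same 2 libraries. The 26 members longer than 2811 bases had a median of -0.41 and the 27 others a median of -0.07. All 7 members lower past 1.5-fold were in the longer group. In the 21 mitotic genes the correlation was -0.68. It was -0.04 over the 114 further pathway genes and -0.07 over all genes tested, and PBK, UBE2C and CENPN, the lowest further genes, are all under 2811 bases. The part of length in the members' differences was not tested.

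**Figure D5:**
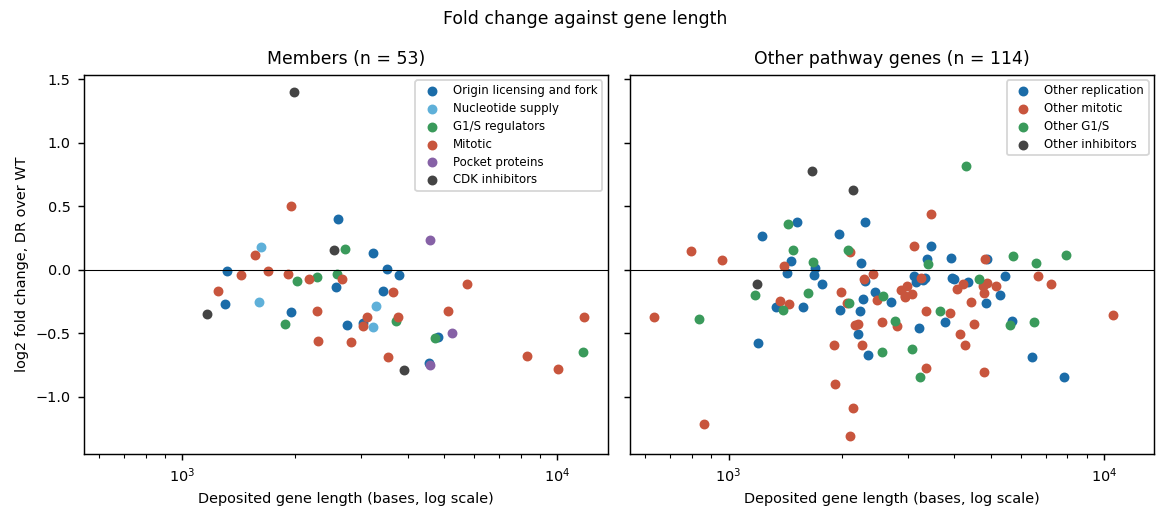
log2 fold change, DR over WT, against the deposited gene length in bases on a log axis, for the 53 members (left) and the 114 further pathway genes (right), coloured by group. Members slope downward with length (Spearman correlation -0.51), while the further genes show no such slope (-0.04).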

How the data were processed

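RNA sequencing gave 1 library labelled DR and 1 library labelled WT. The authors deposited 1 table of 18930 genes with estimated counts per gene, not scaled for library size, and the gene length in bases, which is the other value used here. Counts are empty for 663 genes. The submitters' processing notes name hg19 and Bowtie 0.12.2, with no role, and the counting tool and annotation are not given in the sources used here. The deposited log2 ratio, p-value, q-value and direction columns hold the authors' own comparison and were not used.

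Estimated counts were rounded. CPM used library totals times edgeR's TMM factors (1.01 for DR, 0.988 for WT; edgeR 4.0.16, R 4.3.3). A gene was tested when its reads in the pair of libraries reached 10. No quasi-likelihood test was fitted, since each group is 1 library, and called means past 2-fold or 1.5-fold. Clopper-Pearson intervals (SciPy 1.17.1) fix the total reads of a gene. At these depths 3 reads are worth 0.0547 CPM in DR and 0.085 CPM in WT. The code for fold changes and intervals was run on counts simulated with counting error alone, which cannot show how libraries vary.

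All 53 members matched RefSeq by gene ID, and 25 have fractional counts, while 12 overlap another protein-coding gene. Members and lists were chosen with earlier results of these data known. Every member is accounted for. Named with values by rule were members past 1.5-fold, the extremes of fold change and highest level per length of each group, all pocket proteins and inhibitors, and further pathway genes past 2-fold. Values of the other members, and of the other pathway genes named, were added after they were seen. Alternatives were library totals, DESeq2 1.42.0 size factors, other filters and pseudocounts, a stricter bound, and leaving out fractional counts.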

Additional observations from a re-analysis of the deposited data

How the results depend on the processing

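No paired analysis was possible because DR and WT are 1 library each, and for the same reason no library could be left out. Library totals, DESeq2 size factors and a pseudocount of 0.1 CPM kept the counts past each fold and the number below 0 within 1.5 times. With them the 3 medians stayed between the median lower and the median upper bound of their genes' counting intervals. No filter and at least 50 reads could change none of these values, since every member exceeds 50 reads and the scaling was unchanged. With a pseudocount of 5 CPM the members called higher went from 1 to 0 past 2-fold and from 1 to 0 past 1.5-fold, because it shrinks the fold change of CDKN2C to 0.29. It also took the lower calls past 1.5-fold from 7 to 6, CDKN2B going to -0.45. Requiring the interval bound to pass gave 0 members higher past 2-fold and again 6 lower past 1.5-fold, without CDKN2B. Leaving out fractional counts left 28 members, of which 23 were below 0 and 3 were lower past 1.5-fold (CENPF, CENPE and RB1). It moved the medians to -0.070 (replication, 7 genes), -0.20 (mitotic, 14 genes) and 0.76 (inhibitors, 2 genes). Among the 27 members of at most 2811 bases, a choice made after seeing the data, 0 were lower past 1.5-fold and 20 were below 0, with medians of -0.20, -0.070 and 0.15, so that the mitotic median was then above the replication median. Of the 53 single log2 fold changes, 13 moved beyond their counting interval with library totals, 0 with DESeq2 size factors, 1 with a pseudocount of 0.1 CPM and 2 with 5 CPM. PCNA and CDC20 changed to 0.02 with library totals and MCM2 to -0.0018 with DESeq2 size factors.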

Other observations

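The genes next to the CDK inhibitors were read after the value of CDKN2C had been seen, as the 3 protein-coding genes on each side in RefSeq gene order. FAF1, the nearest on one side of CDKN2C and a cofactor of protein degradation, had very few reads as well, with 25 reads in DR and 2 in WT (0.45 and 0.06 CPM). RNF11, a ubiquitin ligase and the gene beyond C1orf185 on the other side, had 3433 and 2122 reads (61.8 and 60.9 CPM, log2 fold change 0.02, interval -0.06 to 0.10). Low reads thus covered CDKN2C and its direct neighbour FAF1 in both libraries, and not RNF11. C1orf185 was not among the genes with counts, nor was DMRTA2, the gene beyond FAF1. ELAVL4, beyond DMRTA2, had 7 reads in DR and 6 in WT, and TTC39A, beyond RNF11, had 243 and 126. DNA copy number was not measured in these data.

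Beside CDKN2A and CDKN2B, MTAP, an enzyme of methionine salvage, had 4134 and 2785 reads (74.4 and 79.9 CPM, log2 fold change -0.10). MTAP and CDKN2A were thus both well covered, and CDKN2B between CDKN2A and DMRTA1 was low. DMRTA1 had 6.64 and 4.13 CPM (0.62, interval 0.37 to 0.88). Around CDKN1B the genes differed in direction, from DUSP16 at -0.65 (interval -0.73 to -0.58) to GPRC5A at 0.52 on only 19 and 3 reads.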
